A study of Callithrix jacchus with 4 samples.

Results

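HLA-DPB1-positive microglia were nuclei of the injured primary visual cortex (V1) that the authors labelled Microglia, that held 2000 or more unique molecular identifiers (UMIs, each standing for 1 captured transcript) and that held at least 1 UMI of HLA-DPB1. There were 3458 such nuclei of 5437 Microglia-labelled nuclei at that depth, out of 29537 injured nuclei and 38147 nuclei in all, and injured libraries 1, 2 and 3 gave 1494, 979 and 985 of them. The comparison class was the 1979 Microglia-labelled nuclei of the same depth limit with 0 HLA-DPB1 UMIs (696, 672 and 611). The members were chosen by the measured HLA-DPB1 and UMI counts, so the HLA-DPB1 level is a description, and HLA-DPB1 was left out of every test.

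The tissue came from adult common marmosets (Callithrix jacchus). The injured group was 3 animals, 1 library each, taken 7 days after unilateral intracortical injections of the vasoconstrictor endothelin-1 into V1, a model of focal ischemic stroke, and the dissected tissue held both core and penumbra. The control group was 3 uninjured adults pooled in 1 library. The cohorts differed in nuclei isolation, sequencing facility, sequencer and doublet removal, which cannot be told apart from injury, so no test was made between them. Each injured animal gave 1 library and each injured library gave 1 positive and 1 negative sum. For the injured group n = 3 throughout, and animal and library cannot be told apart. The control shares rest on 1 library. The injured libraries held between 35737777 and 48722394 UMIs. Cell barcodes shared between injured libraries numbered 60, and 19 positive nuclei carried 1 of them.

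Major histocompatibility complex (MHC) class II molecules are pairs of an α and a β chain that carry peptides from the endolysosomal pathway to the cell surface for CD4+ T cells. HLA-DPB1 encodes a β chain and HLA-DPA1 its α partner, CD74 encodes the invariant chain that blocks the groove during assembly, and HLA-DM exchanges the invariant chain remnant for peptide. The coactivator CIITA switches the class II genes on and is induced by interferon-gamma. Resting microglia are known for low class II expression, whereas activated microglia, infiltrating macrophages, dendritic cells and B cells carry it.

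The label was described by the 5 marker genes from which the study assigned it, so this is no independent check. The values are set beside the other labelled types only. They cannot separate microglia from infiltrating macrophages or other leukocytes under the label. From staining, the paper judged nearly all macrophages of the ischemic zone at 7 days to be peripheral. It did not fully exclude microglia there, since TMEM119, a microglia marker, was missing from its annotation. In the results below, microglia is short for Microglia-labelled nuclei and names no origin. Over the 3 injured libraries, P2RY12, a purinergic receptor of surveying microglia, stood at 174 CPM (UMIs of the gene per 1000000 UMIs summed) in Microglia-labelled nuclei against 49.2 CPM in the next type, astrocytes. The complement gene C1QB stood at 440 CPM against 47.0 in its next type, DOCK8 at 1177 CPM against 76.9, and CD74 at 1131 CPM against 346 in endothelial nuclei. GPR34, a lysophospholipid receptor, went against the label, at 33.4 CPM in Microglia and 35.3 CPM in oligodendrocyte precursors.

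The Microglia label covered 4 deposited clusters, and these differed in identity. Cluster 6 held 3134 of the nuclei, cluster 21 held 1640, cluster 16 held 655 and cluster 27 held 8, none of which was positive. In cluster 16 P2RY12, CSF1R and C1QB went against the label, and DOCK8 and CD74 did not. The P2RY12 level of cluster 16 was 25.2 CPM against 147 in cluster 6 and 259 in cluster 21. CSF1R, the receptor for a microglial survival factor, was at 19.9 CPM against 215 and 196. Over libraries and HLA-DPB1 classes, C1QB ran from 51.0 to 192 CPM in cluster 16. It ran from 260 to 863 CPM in cluster 6 and from 388 to 578 CPM in cluster 21. DOCK8 stood at 1251 CPM in cluster 16 against 1093 and 1314 CPM, and CD74 at 2190 against 1276 and 613 CPM. GPR34 was lower in cluster 6 (10.2 CPM) than in clusters 16 (17.3) and 21 (79.4), as was CX3CR1, the fractalkine receptor of microglia (0.97 CPM against 2.62 and 28.0). Cluster 6, which held 58.9, 70.7 and 64.3% of the positive nuclei, also held 1810 CPM of F13A1 and 343 CPM of VCAN, both on the macrophage marker lists (195 and 79.2 CPM in cluster 16, 1313 and 68.1 CPM in cluster 21). Cluster 16 also held 419 CPM of the T cell adaptor SKAP1 (3.8 and 8.3 CPM in clusters 6 and 21), 115 CPM of the B cell gene MS4A1 (1.0 and 1.1 CPM) and 158 CPM of FLT3, a receptor of dendritic cells and their precursors (13.9 and 5.6 CPM). The summed lymphocyte marker list reached 3662 CPM there against 365 and 291 CPM, and in the injured libraries taken apart it ran from 3013 to 4216 CPM in cluster 16. Clusters 6 and 21 also differed from each other. The scavenger receptors CD163 and MRC1 stood at 763 and 387 CPM in cluster 6 and 229 and 107 CPM in cluster 21, whereas the mitotic gene TOP2A stood at 11.1 CPM in cluster 6 and 366 CPM in cluster 21. Since cluster 16 held lymphocyte and dendritic cell genes, the clusters are called by number and each leading count is also given without cluster 16.

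The first question was how often HLA-DPB1 was detected in these nuclei. Of Microglia-labelled nuclei at 2000 or more UMIs, 68.2% were positive in injured 1 (exact binomial 95% interval 66.2 to 70.2%), 59.3% in injured 2 (56.9 to 61.7%) and 61.7% in injured 3 (59.3 to 64.1%), a mean of 63.1% ± 4.61 (SD, n = 3). These intervals cover counting error only. With every nucleus thinned to 2000 UMIs the share was 43.9, 43.5 and 41.7% (43.0% ± 1.15, SD, n = 3), so the libraries lay closer together at equal depth and injured 1 no longer stood apart. The share without cluster 16 was 63.4% ± 4.80. Of 180 nuclei with 1900 to under 2000 UMIs, 48.9% were positive, and of 141 nuclei with 2000 to under 2100 UMIs, 51.1% were.

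Other cell types were positive far less often, and their shares were not alike. Excitatory neurons, which do not normally use class II, gave 9.05, 5.51 and 5.32% positive nuclei at median depths of 7119.5, 5450.5 and 6461 UMIs. Positive microglia were shallower than that, with median depths of 5149, 3398 and 4244 UMIs (negative microglia 4042, 3027.5 and 3710). Thinned to 2000 UMIs, the mean share over the 3 libraries was 2.29% in excitatory neurons, 2.10% in inhibitory neurons, 4.75% in oligodendrocytes, 6.59% in astrocytes, 7.50% in endothelial nuclei and 8.83% in oligodendrocyte precursors, each below the 43.0% in microglia. HLA-DPB1 itself stood at 323, 320 and 307 CPM in Microglia-labelled nuclei. The number of CD74 UMIs per HLA-DPB1 UMI was not constant across types, at 3.04, 4.36 and 3.76 in microglia, 3.59, 4.71 and 4.62 in astrocytes and 11.7, 10.5 and 9.24 in excitatory neurons. How much free RNA contributed to the positive class was not tested.

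**Figure D1:**
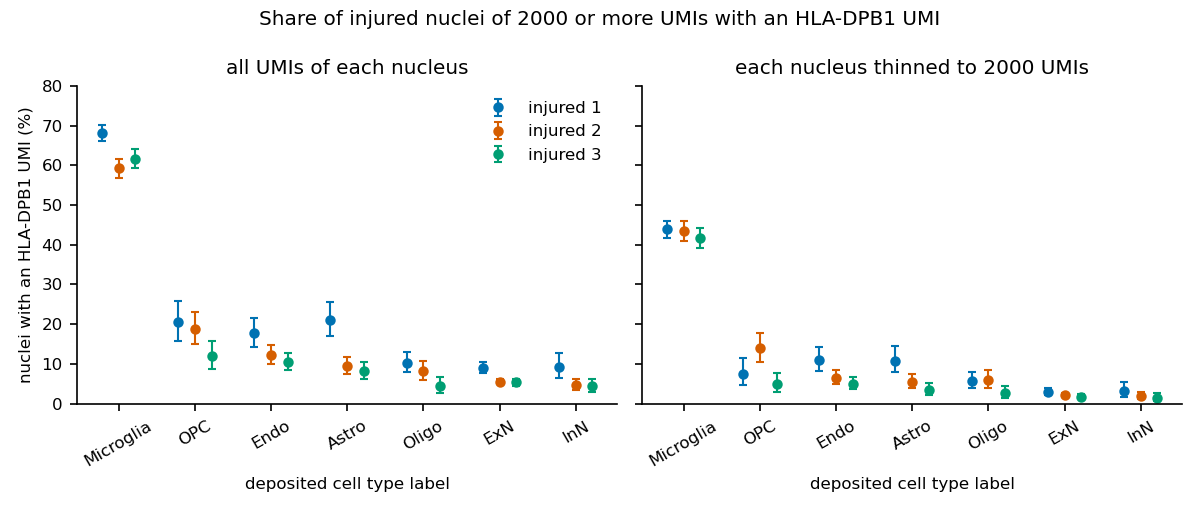
Share of injured nuclei of 2000 or more UMIs with an HLA-DPB1 UMI (y axis, percent) by deposited cell type (x axis), unthinned on one side and thinned to 2000 UMIs on the other; points are the 3 injured libraries and bars are exact binomial 95% intervals. Microglia stand at 59.3 to 68.2% unthinned and 41.7 to 43.9% thinned, above every other type in each library.

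In the control library 0 of 129 Microglia-labelled nuclei were positive, which at their median depth of 793 UMIs allows a share of nuclei with an HLA-DPB1 UMI of up to 2.33% (3 counts of the total) or 2.82% (exact binomial 95% interval). At the limit of 2000 UMIs it was 0 of 7 nuclei, with an exact upper bound of 41.0%. The 129 nuclei held they held 124463 UMIs in all, of which P2RY12 took 29 and CD74, CAJA-DRA, CIITA and B2M took 1 each. Below 2000 UMIs in the injured libraries, 787 of 2296 Microglia-labelled nuclei (34.3%) were positive.

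Most members rested on few HLA-DPB1 UMIs. Exactly 1 UMI was found in 596, 504 and 426 of them (39.9, 51.5 and 43.2%), exactly 2 in 404, 259 and 268, and 3 or more in 494, 216 and 291 (33.1, 22.1 and 29.5%), with a highest count of 19, 15 and 15. Members also held more genes, with medians of 2568, 1924 and 2264 genes against 2235, 1772 and 2103 in negative nuclei. The classes therefore differed in depth, and results are also given at equal depth.

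The second question was what else differed between positive and negative microglia. UMIs were summed per library and class, and the 6 sums were compared with edgeR's quasi-likelihood test with library as a block. A call required a Benjamini-Hochberg adjusted p below 0.01, a fold of at least 1.28 in either direction and detection (a UMI) in no fewer than 10% of positive or of negative nuclei. Of 11944 genes tested, 241 were called (2.02%), of which 137 were higher in positive nuclei (1.15%) and 104 lower (0.871%). The direction was the same in 3 of 3 libraries for 240 of the 241. The blocked test that called them used these same sums, so this is no separate check of consistency. The sums of the classes did not overlap for 100 of the 241, while 10.3% of all tested genes had classes that did not overlap. Without cluster 16 there were 212 calls (1.82%), 106 in each direction (0.911% of genes tested), and 181 of these were among the 241. With library size alone in place of TMM factors, the split moved to 90 higher (0.754%) and 128 lower (1.07%) of 218 calls (1.83%). Without library as a term edgeR made 0 calls, with 533 genes at an unadjusted p below 0.05. DESeq2 with the block called 106 genes (0.887%; 70 higher, 0.586%, and 36 lower, 0.301%), each of them also called by edgeR. List counts in other settings stand beside other shares. Of all genes tested, 0.313, 2.31 and 0.449% were called higher in clusters 6, 16 and 21 and 0.019, 1.07 and 0.102% lower. With equal numbers of nuclei drawn per cluster and depth bin, 0.443% were called higher and 0.0813% lower. Thinned, it was 1.16% higher and 0.921% lower.

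The tested class II genes rose together in positive nuclei. CAJA-DRA, the marmoset DR α chain, stood at 515, 1100 and 674 CPM in positive sums of injured 1, 2 and 3 and at 263, 569 and 272 CPM in negative sums. It was higher in 3 of 3 libraries although the ranges overlapped, since injured 2 was high in both classes. The log2 fold change was 1.12 ± 0.07 (SE, edgeR adjusted p = 2.1e-08). This and the later SEs of fold changes come from the fitted model and are not the spread over animals. CD74 stood at 1119, 1676 and 1444 CPM against 630, 947 and 624 CPM, with no overlap, and rose by 1.003 ± 0.06 on the log2 scale (edgeR adjusted p = 2.5e-08). HLA-DPA1, the partner chain of HLA-DPB1, stood at 42.8, 86.2 and 43.5 CPM against 23.9, 41.1 and 20.8 CPM. Its classes did not overlap, and it rose by 1.04 ± 0.11 (edgeR adjusted p = 1.8e-05). HLA-DMA, the α chain of HLA-DM, stood at 61.3, 80.9 and 62.8 CPM against 38.4, 45.1 and 29.4 CPM. These classes did not overlap either, and the rise was 0.90 ± 0.11 (edgeR adjusted p = 4.1e-05).

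Of 16 class II chains and chaperones listed, 7 were in the table, and HLA-DPB1, which chose the class, is not among these. Of the 7, 4 passed the filter on low counts and the 4 rose, beside 1.15% of all tested genes called higher. Their median log2 fold change was 1.02 against 0.00 over all tested genes. Without cluster 16 the 4 rose as well, with a median of 0.93. HLA-DQA2 held 20, 7 and 13 UMIs in positive and 8, 4 and 2 in negative sums, and HLA-DOA, a chain of the HLA-DM regulator HLA-DO, held 24, 9 and 16 against 1, 5 and 2. HLA-DOB held 0 UMIs. Class II genes are close paralogs, so reads may have been divided among them in counting. Among all called rises the largest fitted change belonged to ENSCJAG00000001638, which the name tables used here do not pair with a symbol. It stood at 692, 1190 and 797 CPM against 370, 607 and 307 CPM and rose by 1.13 ± 0.07 (edgeR adjusted p = 2.5e-08).

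**Figure D2:**
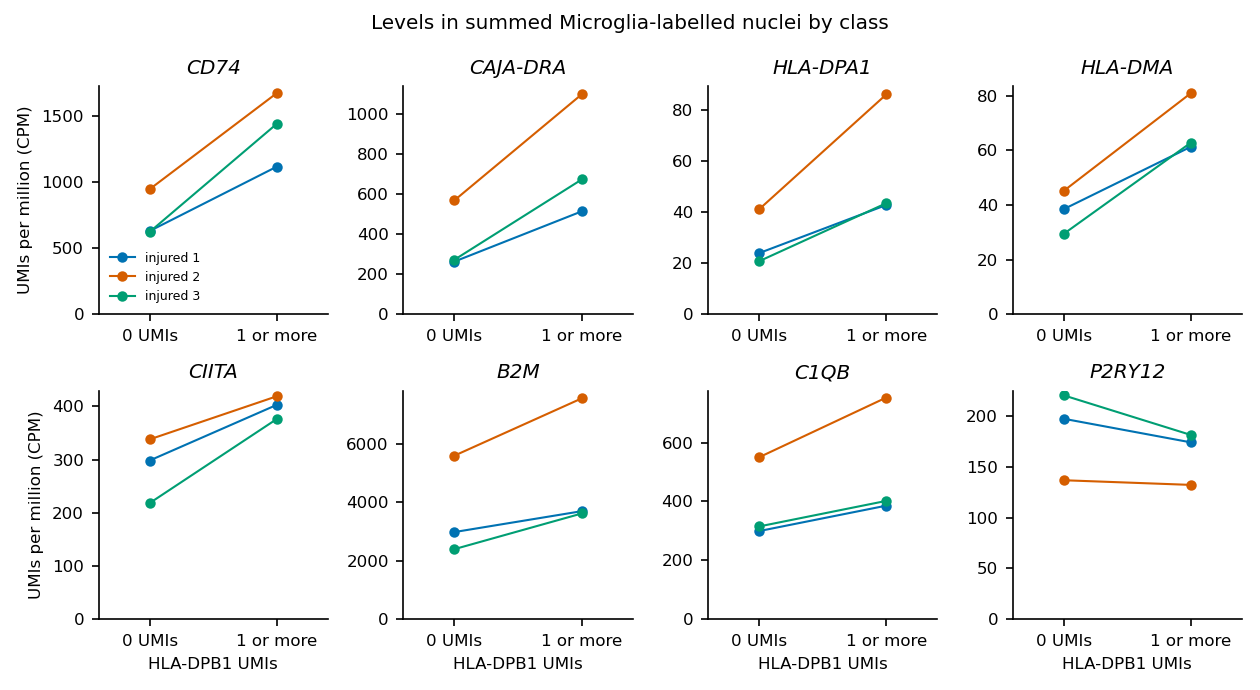
Level (y axis, CPM) of named genes in summed Microglia-labelled nuclei with 0 and with 1 or more HLA-DPB1 UMIs (x axis); each line joins the 2 sums of 1 injured library. CD74 goes from 630, 947 and 624 CPM to 1119, 1676 and 1444 CPM and CAJA-DRA from 263, 569 and 272 CPM to 515, 1100 and 674 CPM.

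The class II rise was graded with the number of HLA-DPB1 UMIs. In nuclei with 0, 1, 2 and 3 or more HLA-DPB1 UMIs, CD74 stood at 630, 723, 942 and 1657 CPM in injured 1, at 947, 1367, 1527 and 2457 CPM in injured 2 and at 624, 955, 1274 and 2213 CPM in injured 3. The order of the 4 grades was the same in each library, and the CD74 level at 3 or more UMIs was 2.92 ± 0.54 times that at 0 UMIs (SD, n = 3), or 2.73 times without cluster 16. CAJA-DRA followed the same order, at 263, 327, 410 and 786 CPM in injured 1, 569, 827, 1018 and 1736 CPM in injured 2 and 272, 476, 582 and 1005 CPM in injured 3. HLA-DPA1 went from 23.9 to 62.1, from 41.1 to 139 and from 20.8 to 66.3 CPM between 0 and 3 or more UMIs. P2RY12 ran the other way in part, at 198, 195, 167 and 159 CPM in injured 1, 137, 138, 129 and 125 CPM in injured 2 and 221, 223, 170 and 139 CPM in injured 3. Nuclei with 3 or more HLA-DPB1 UMIs were also deeper, with medians of 5605.5, 3793.5 and 4515 UMIs against 4042, 3027.5 and 3710 at 0 UMIs, and these grades are a description with no test.

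**Figure D3:**
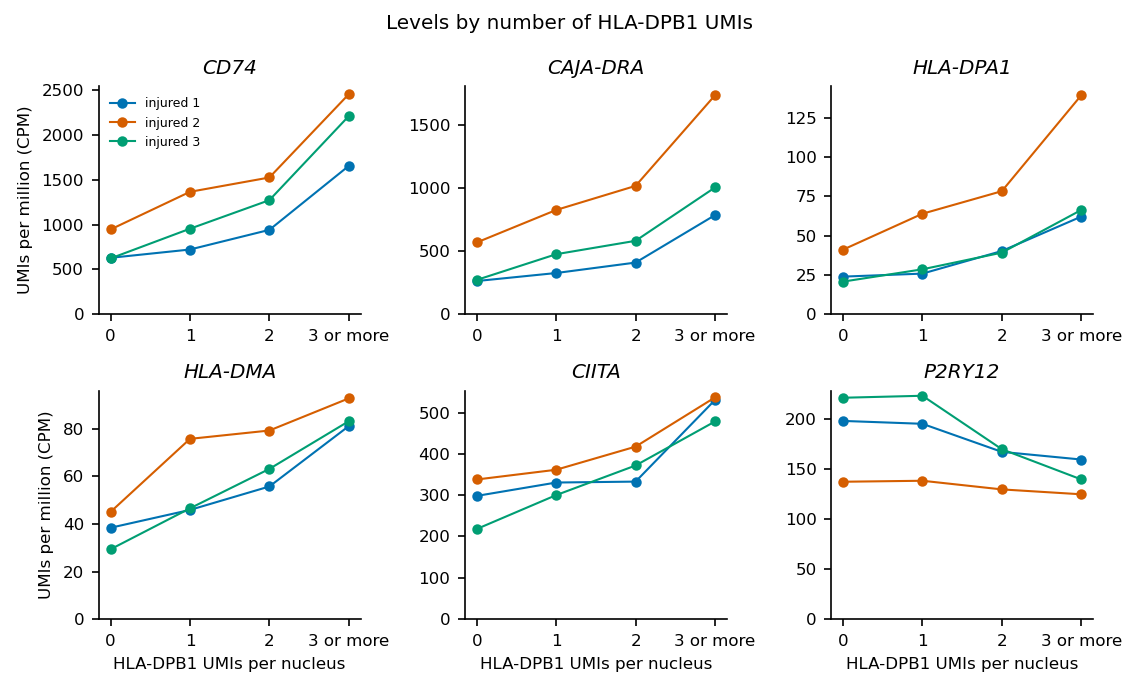
Level (y axis, CPM) of named genes in Microglia-labelled nuclei with 0, 1, 2 and 3 or more HLA-DPB1 UMIs (x axis), 1 line per injured library. CD74 at 3 or more UMIs reaches 1657, 2457 and 2213 CPM, the highest of the 4 grades in each library, whereas P2RY12 is lowest there, at 159, 125 and 139 CPM.

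Co-detection in the same nuclei was measured as well. CD74 UMIs were present in 93.1, 92.4 and 91.8% of positive and 85.6, 85.4 and 79.9% of negative nuclei, a difference of 8.80 ± 2.70 percentage points (SD, n = 3). Thinned to 2000 UMIs and with the class read again, the shares were 79.4, 83.3 and 80.6% against 67.3, 76.2 and 62.7%, a difference of 12.4 ± 5.44 points. CAJA-DRA was present in 57.5, 70.5 and 61.0% of positive against 42.5, 57.7 and 42.6% of negative thinned nuclei. Excitatory neurons, at greater depth, had a CD74 UMI in 64.0, 42.5 and 39.1% of nuclei, or 26.8, 19.2 and 15.9% thinned, and a CAJA-DRA UMI in 9.21, 7.07 and 5.53% thinned. The shares in negative microglia lay above these.

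Among the regulators of class II, CIITA rose. It stood at 403, 419 and 377 CPM in positive against 298, 338 and 218 CPM in negative sums, with no overlap, and rose by 0.56 ± 0.07 on the log2 scale (edgeR adjusted p = 1.3e-04). RFX5, the DNA-binding partner of CIITA at class II promoters, had a larger fitted difference, 0.94 ± 0.23, but missed the call (edgeR adjusted p = 0.015), at 10.7, 15.8 and 11.7 CPM against 7.24, 6.25 and 6.27 CPM. Of 13 tested genes of class II transcription 2 rose, CIITA among them, and 0 fell, beside 1.15% of all tested genes called higher. The myeloid factor SPI1 was not called, at 170, 200 and 169 CPM against 153, 167 and 159 CPM. CIITA was not called within cluster 6 (0.40, edgeR adjusted p = 0.014) or cluster 21 (0.17, edgeR adjusted p = 0.53), where 0 of 12 tested genes of the list were called.

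The class I pathway, which presents peptides of the cell's own proteins, gave 2 rises among 16 tested genes, beside 1.15% of all tested genes called higher. Its list median was 0.26. B2M, the light chain of class I, stood at 3692, 7552 and 3613 CPM against 2977, 5590 and 2392 CPM and rose by 0.50 (edgeR adjusted p = 2.0e-06). TAP1, a subunit of the peptide transporter, stood at 170, 442 and 151 CPM against 140, 320 and 97.9 CPM and rose by the same 0.50. In both genes injured 2 was high in either class. Of 14 endolysosomal processing genes 2 rose and 0 fell, with a list median of 0.26, beside 1.15% of all tested genes called higher. These were IFI30, a lysosomal thiol reductase (0.37), and CD68, a lysosomal membrane glycoprotein (0.42), and IFI30 was not called without cluster 16. The list had 0 calls in clusters 6 and 21, 1 rise with library size alone, 1 at equal numbers per cluster and depth bin (median 0.092) and 3 thinned (median 0.060).

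Interferon-response genes gave 1 call in each of 2 lists, beside 1.15% of all tested genes called higher. Of 12 tested genes of the interferon-gamma response, GBP1, a guanylate-binding protein, rose by 0.59 (197, 560 and 162 against 158, 408 and 83.8 CPM), but was not called in cluster 6 (0.41). CXCL9, a T cell-attracting chemokine, stood at 11.1, 85.3 and 8.45 CPM against 5.04, 49.1 and 1.57 CPM and had a fitted difference of 1.04 (edgeR adjusted p = 0.0013), but only 5.78% of positive nuclei held a UMI, so it was not called. Of 32 tested type I interferon genes, ISG15, a ubiquitin-like modifier, rose by 0.59 (91.8, 398 and 73.9 against 76.2, 262 and 42.3 CPM). Injured 2 held the highest level of GBP1, CXCL9 and ISG15 in both classes.

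Complement genes gave 6 rises of 15 tested and 0 falls, with a list median of 0.42, beside 1.15% of all tested genes called higher. C1S, a protease of the classical pathway, stood at 63.4, 223 and 62.4 CPM against 35.9, 151 and 26.2 CPM and rose by 0.84. The C1q chains C1QB (386, 753 and 402 against 299, 550 and 315 CPM) and C1QC rose by 0.44 and 0.42, SERPING1, the inhibitor of the C1 proteases, by 0.65, and ITGB2, the shared chain of the complement receptor integrins, by 0.52. Without cluster 16 there were 5 rises, at equal numbers per cluster and depth bin 4 (median 0.30) and thinned 3 (median 0.21). In cluster 6 there were 2, C1QB and C1QC, and in cluster 21 there were 0 of 14. In the same order, 0.911, 0.443, 1.16, 0.313 and 0.449% of all genes tested in these settings were called higher. CFD, the factor D protease of the alternative pathway, was not on that list and rose by 1.004 (42.4, 95 and 66.3 against 25.5, 58.0 and 22.7 CPM), with classes that overlapped.

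Lipid-handling and phagocyte genes gave 7 rises of 31 tested and 0 falls, with a list median of 0.23, beside 1.15% of all tested genes called higher and 0.871% lower. FTL, the ferritin light chain, stood at 1053, 1313 and 1274 CPM against 796, 971 and 850 CPM, with no overlap, and rose by 0.52 (edgeR adjusted p = 3.3e-06). CD36, a scavenger receptor, and CTSK, a lysosomal protease, both rose by 0.49, the annexin ANXA2 by 0.46 and the lectin LGALS3 by 0.37. CD36 turned to -0.03 in cluster 6, to -0.064 at equal numbers per cluster and depth bin and to -0.013 and -0.11 with classes by HLA-DPA1 and CAJA-DRA, none of them called. Without cluster 16 the list had 4 rises, with library size alone 3, within cluster 6 it had 1 (FTL), and at equal numbers per cluster and depth bin 1 (FTL), where the list median was 0.044. Thinned to 2000 UMIs it had 2 rises and 2 falls, with a median of 0.13. Fc receptors and innate sensors gave 2 rises of 25: TLR8, an endosomal RNA sensor, rose by 0.63 and FCER1G, the Fc receptor signalling chain, by 0.44, and neither was called at equal numbers per cluster and depth bin.

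Markers of monocyte-derived macrophages gave 6 rises and 1 fall of 17 tested, beside 1.15% of all tested genes called higher and 0.871% lower. PLAC8, a small cysteine-rich protein of myeloid and lymphoid cells, stood at 130, 262 and 96.2 CPM against 65.2, 141 and 45.4 CPM and rose by 1.03 ± 0.08 (edgeR adjusted p = 2.6e-07). CLEC12A, an inhibitory lectin receptor of myeloid cells, rose by 0.74, ITGA4, the α4 integrin chain, by 0.57, and LYZ, lysozyme, by 0.52. S100A9, a calprotectin subunit, fell. It stood at 46.6, 32.1 and 42.2 CPM in positive and 91.6, 73.7 and 85.4 CPM in negative sums, with no overlap, a log2 change of -0.995 ± 0.09 (edgeR adjusted p = 2.9e-06). Thinned, S100A9 stood at -0.91 (edgeR adjusted p = 3.6e-05) but had a UMI in under 10% of nuclei of either class and was not called, and with classes by HLA-DPA1 and CAJA-DRA it turned to 0.16 and 0.37, not called. Without cluster 16 there were 4 rises and 1 fall, and within cluster 6 and at equal numbers per cluster and depth bin PLAC8 was the 1 rise, with 0 falls and list medians of 0.14 and 0.15. Cluster 21 gave 2 rises and 1 fall of 12, the fall being S100A9 (-0.55, edgeR adjusted p = 0.0011).

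Of 27 tested homeostatic microglia genes 0 rose and 1 fell, with a list median of -0.13, beside 0.871% of all tested genes called lower. The median turned to 0.10 within cluster 6 (17 of 24 fitted higher) and to 0.37 within cluster 16 (3 rises of 15, beside 2.31% of genes tested there). It turned to 0.078 at equal numbers per cluster and depth bin (18 of 26 fitted higher). Each of these settings gave 0 falls. GPR34 stood at 29.8, 17.2 and 29.7 CPM against 47.9, 25.4 and 63.4 CPM and fell by 0.77 on the log2 scale (edgeR adjusted p = 7.8e-04). With depth alone set equal it was not called, at -0.46 thinned (edgeR adjusted p = 0.15) and -0.60 with equal numbers per depth bin (edgeR adjusted p = 0.026). P2RY12 stood at 174, 132 and 182 CPM against 198, 137 and 221 CPM, lower in 3 of 3 libraries but not called (log2 change -0.13, edgeR adjusted p = 0.34). CX3CR1, the fractalkine receptor, and SALL1, a microglial transcription factor, had fitted changes of -0.93 and -0.92 that missed the call (edgeR adjusted p = 0.013 and 0.016), each with a UMI in under 10% of nuclei. TYROBP, the adaptor of TREM2, had a fitted difference of 0.35 and failed the fold limit.

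The summed lymphocyte marker level was lower in positive sums, and its members had fitted changes of both signs. Of 19 tested 0 rose and 1 fell, with a list median of -1.06, beside 1.15% of all tested genes called higher and 0.871% lower. CD247, the T cell receptor zeta chain, fell by 0.86 (45.1, 32.7 and 32.3 against 83.8, 67.4 and 56.4 CPM), but was not called thinned (-0.50). The T cell genes BCL11B, SKAP1 and THEMIS had fitted changes of -1.44, -1.42 and -1.26 at edgeR adjusted p of 2.9e-05 or less, but a UMI in under 10% of nuclei of either class, so they were not called. Of the 19, 4 were fitted higher, among them the B cell genes MS4A1 (1.28, edgeR adjusted p = 0.0035) and PAX5 (1.63, edgeR adjusted p = 0.0075), also under 10% of nuclei; both were named after their values were seen. The summed list of 26 markers, none at 0, stood at 598, 450 and 500 CPM in positive against 845, 788 and 535 CPM in negative sums. Without cluster 16, 7 of the markers were tested, 0 were called, the list median was 0.07 and CD247 stood at 0.04. Border-associated macrophage markers gave 0 rises and 1 fall of 13, the scavenger receptor COLEC12 (-0.53), and CD163 stood at 534, 290 and 793 CPM against 537, 229 and 653 CPM (log2 0.24, not called). The median of that list was 0.21 (9 of 13 fitted higher) and turned to -0.21 in cluster 6 (1 of 12 higher, 1 fall). It was -0.21 at equal numbers per cluster and depth bin (0 of 12 higher, 2 falls) and -0.12 thinned (2 of 12 higher, 1 fall). In the same order, 0.019, 0.0813 and 0.921% of all genes tested in these settings were called lower.

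The remaining lists are given beside 1.15% of all tested genes called higher and 0.871% called lower. Dendritic cell markers gave 0 rises and 1 fall of 10, the actin bundler FSCN1 (-0.75). FSCN1 was not called thinned (-0.57), with equal numbers per depth bin (-0.51) or per cluster and depth bin (-0.036). FLT3 had a fitted difference of 0.86 with a UMI in under 10% of nuclei. Of 21 tested costimulation and checkpoint genes CD4 rose, by 0.59, and its level was 269 CPM in cluster 16 against 45.9 and 44.2 CPM in clusters 6 and 21. It was not called without cluster 16. Ribosomal protein genes gave 2 rises of 20 (RPLP1 and RPLP0), but 0 with library size alone, 0 at equal numbers per cluster and depth bin and 5 thinned. Chemokines and their receptors gave 0 calls of 14 (1 fall of 11 thinned). The list of Nogo, its receptors and downstream effectors gave 0 calls of 10. RTN4, which encodes Nogo, stood at 275, 378 and 346 CPM against 303, 365 and 311 CPM. The receptor genes LILRB2 and RTN4R were not found by symbol in the deposited counts, so they were not tested. Cell cycle genes gave 0 calls of 28 with a list median of -0.22 (1 fall of 27 thinned, median -0.57). Of 25 tested markers of the 6 other cell types FLT1, a receptor of endothelial cells, fell by 0.59 and none of the other 24 was called. FLT1 was not called thinned (-0.32), at equal numbers per cluster and depth bin (-0.072) or in cluster 6, where it turned to 0.12. Their summed level stood at 1731, 1787 and 1922 CPM in positive and 1792, 1848 and 2002 CPM in negative sums.

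Among the remaining largest rises were ENSCJAG00000032474, with no symbol (0.97), ALDH1A1, a retinaldehyde dehydrogenase (0.81), MNDA, a nuclear antigen of myeloid cells (0.81), PLBD1, a lysosomal phospholipase-like protein (0.79), UNC93A (0.76), the secreted ribonuclease RNASE1 (0.74), the Rac activator DOCK5 (0.72) and the sialic acid-binding lectin CD33 (0.71). RNASE1 stood at 353, 357 and 418 CPM against 249, 221 and 226 CPM and its classes did not overlap. MNDA stood at 74.0, 52.4 and 36.8 CPM against 49.1, 41.5 and 9.01 CPM and overlapped.

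The largest falls were WDR49 (-1.14), ST6GALNAC3, a sialyltransferase (-1.03), NCKAP5 (-1.01), the cytokine TGFB2 (-0.98), KIAA1671 (-0.98), the netrin receptor DCC (-0.96), the Ras activator RASGRP1 (-0.92), the cadherin CDH10 (-0.91), the homeobox factor MEIS2 (-0.90), the protein kinase C gene PRKCH (-0.89) and the potassium channel-interacting KCNIP1 (-0.87). TGFB2 stood at 66.7, 83.1 and 73.0 CPM against 131, 146 and 180 CPM, with no overlap. WDR49 stood at 34.1, 33.0 and 43.1 CPM against 64.2, 82.1 and 111 CPM, also with no overlap.

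**Figure D4:**
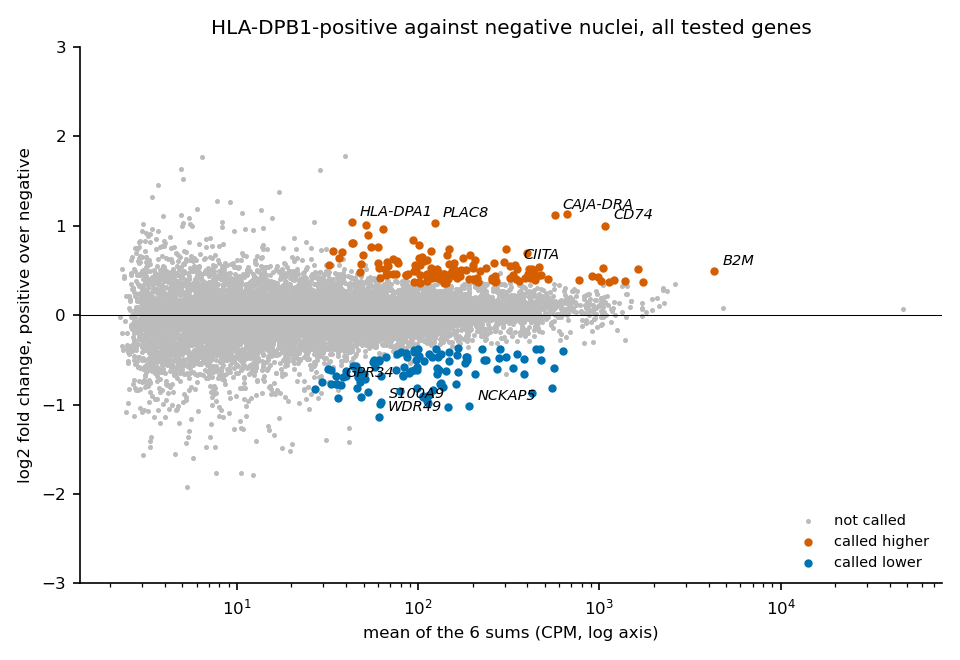
Log2 fold change of positive over negative microglia (y axis) against the mean level of the 6 sums (x axis, CPM on a log scale) for 11944 tested genes, with the 137 genes called higher and 104 called lower in colour. The class II genes lie near 1 at levels where most genes lie near 0.

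The classes did not draw equally on the deposited clusters. Cluster 6 gave 58.9, 70.7 and 64.3% of positive nuclei against 50.3, 50.9 and 38.8% of negative nuclei, and cluster 21 gave 27.4, 20.7 and 24.2% against 33.2, 36.8 and 50.9%. Cluster 16 gave 13.7, 8.58 and 11.6% against 16.5, 11.9 and 9.49%. Read the other way, 70.4% ± 3.08 of cluster 6 nuclei, 60.5% ± 8.11 of cluster 16 nuclei and 50.8% ± 11.4 of cluster 21 nuclei were positive (SD, n = 3), and thinned to 2000 UMIs the shares were 48.0, 52.5 and 30.3%. HLA-DPB1 stood at 361 CPM in cluster 6, 544 in cluster 16 and 184 in cluster 21, and CD74 at 1276, 2190 and 613 CPM.

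Called genes differed in level between the clusters. Of the 137 rises, 90 had their highest level in cluster 6, 47 in cluster 16 and 0 in cluster 21, and of the 104 falls, 0 were highest in cluster 6, 19 in cluster 16 and 85 in cluster 21. Over all tested genes, 18.7, 52.6 and 28.7% were highest in clusters 6, 16 and 21. S100A9 stood at 8.26, 15.7 and 154 CPM in clusters 6, 16 and 21, WDR49 at 2.22, 4.20 and 155 CPM, TGFB2 at 8.46, 17.8 and 280 CPM and DCC at 16.9, 20.5 and 259 CPM. KIAA1671, PRKCH and RASGRP1 were highest in cluster 16, at 172, 741 and 283 CPM. How much of each difference came from the make-up of the classes was not partitioned.

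Within clusters, class II genes rose in clusters 6 and 16, and few falls were called in clusters 6 and 21. Cluster 6 alone gave 35 calls (0.332%), 33 rises (0.313% of genes tested there) and 2 falls (0.019%), and the class II list gave 4 rises of 4, with a median of 0.89. CD74 in cluster 6 stood at 1209, 1751 and 1587 CPM in positive against 637, 1106 and 736 CPM in negative nuclei and rose by 0.90. Cluster 16 alone gave 202 calls (3.37%), 138 rises (2.31%) and 64 falls (1.07%), and 3 class II genes rose, with a list median of 1.62. CD74 there stood at 2155, 4065 and 3341 CPM against 809, 1290 and 1291 CPM and rose by 1.54, and CIITA rose by 1.94. Markers of other cell types moved with the class in that cluster. Of 18 tested lymphocyte markers 8 fell there, among them the T cell genes THEMIS (-1.52), BCL11B (-1.51) and SKAP1 (-1.40), and 2 rose, the B cell genes MS4A1 (1.79) and PAX5 (2.14). Of 8 tested dendritic cell markers 2 rose, ZBTB46 (1.58) and TCF4 (1.16), and of 11 tested monocyte-derived macrophage markers 4 rose, among them FGR (1.75), VCAN (1.65) and PLAC8 (1.25), with 0 falls in either list. The genes of this cluster outside the naming rule were named after their values were seen. The part of these markers in the class II difference of cluster 16 was not tested.

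Cluster 21 alone gave 54 calls (0.552%), 44 rises (0.449%) and 10 falls (0.102%). None of the 4 class II genes was called there, with a median of 0.30, and CD74 stood at 662, 782 and 572 CPM against 570, 656 and 468 CPM (log2 0.26). CAJA-DRA stood at 307, 434 and 268 CPM against 251, 389 and 182 CPM (log2 0.33). CD74 and CAJA-DRA were thus higher in positive nuclei in 3 of 3 libraries in that cluster too. Whether the class difference itself differed between clusters was not tested. ITGA4, CD36, CLEC12A and ANXA2 rose within cluster 21, by 1.36, 1.09, 0.95 and 0.93, while in cluster 6 their differences were 0.27, -0.03, 0.27 and 0.14 and none was called. Of 28 cell cycle genes 3 rose within cluster 21, with a list median of 0.41, among them TOP2A (0.43), and of 18 tested in cluster 16 there were 4 that fell, with a median of -0.74, among them MKI67 (-1.16).

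With equal numbers of positive and negative nuclei drawn in each library, cluster and depth bin, 58 genes were called (0.524%), 49 rises (0.443%) and 9 falls (0.0813%), and 43 of the rises and 6 of the falls were among the calls over all nuclei. The 4 class II genes rose, with a median of 0.85, as did CIITA (0.52), B2M (0.49), PLAC8 (0.87), CFD (0.72), FTL (0.39), C1QB (0.38) and C1QC (0.38). S100A9 stood at -0.40, GPR34 at -0.01, DCC at -0.02 and TGFB2 at 0.06, and none of these was called. With depth alone set equal by thinning every nucleus to 2000 UMIs and reading the class again, 224 genes were called (2.08%; 125 higher, 1.16%, and 99 lower, 0.921%), 134 of them among the 241. With the class read from HLA-DPA1 in place of HLA-DPB1, 23 of the 104 falls and 72 of the 137 rises were called. Of all 11821 genes tested there, 216 were called higher and 45 lower. With the class read from CAJA-DRA, 11 of the falls and 72 of the rises were called. Of all 12117 genes tested there, 200 were called higher and 34 lower. In each setting 240 of the 241 calls were tested.

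**Figure D5:**
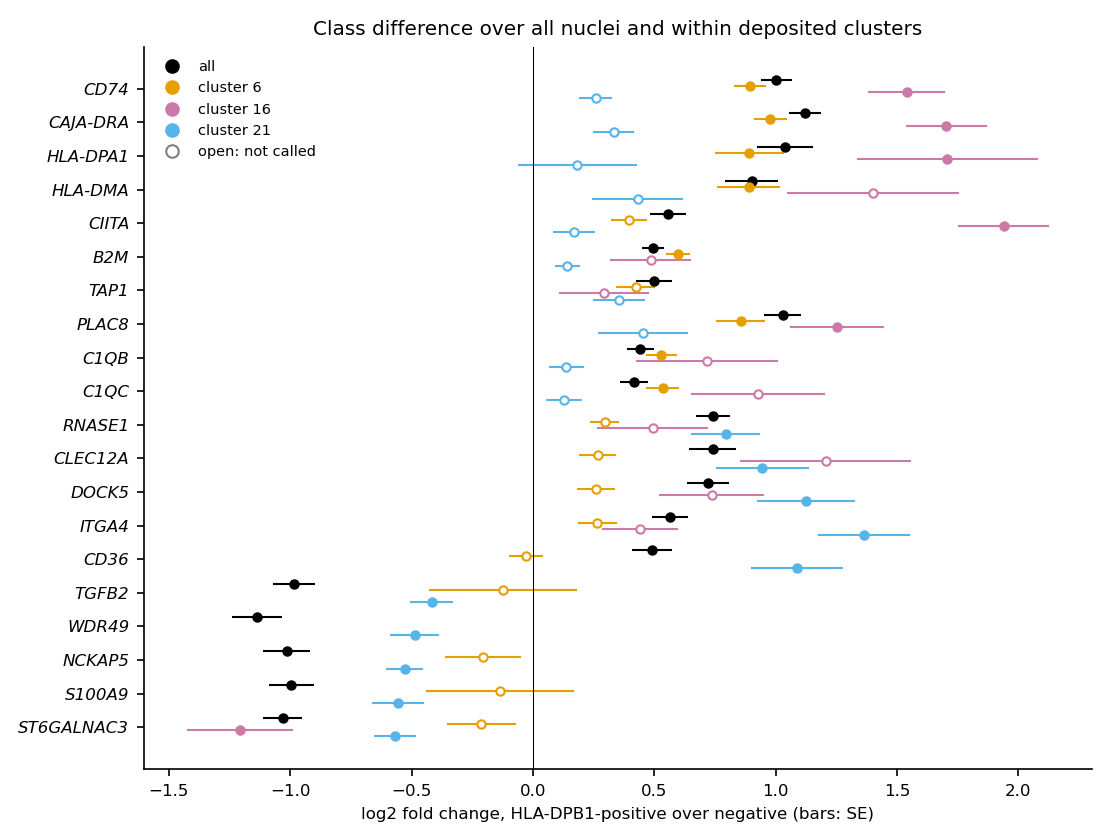
Log2 fold change of HLA-DPB1-positive over negative nuclei (x axis, bars are SE) for named genes (y axis), over all Microglia-labelled nuclei and within deposited clusters; filled points are called and open points are not. CD74 lies at 1.003 over all nuclei, 0.90 in cluster 6, 1.54 in cluster 16 and 0.26 in cluster 21, whereas S100A9 lies at -0.995 over all nuclei, -0.14 in cluster 6 and -0.55 in cluster 21.

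The third question was whether the class difference was particular to Microglia-labelled nuclei. Positive and negative nuclei of astrocytes (207 positive nuclei) and oligodendrocytes (122) were summed the same way and the difference between the class differences was tested as an interaction over 12 sums. Against astrocytes 5 of 12526 genes were called (0.0399%; 3 with a higher log2 value in microglia, 0.024%, and 2 with a lower one, 0.016%) and against oligodendrocytes 12 of 11785 (0.102%; 6 in each direction, 0.0509%), on the same limits but with no limit on the share of nuclei with a UMI. Without cluster 16 there were 8 calls against astrocytes (2 higher and 6 lower) and 15 against oligodendrocytes (7 higher and 8 lower). No tested class II gene was among them. The CD74 difference was 1.01 in microglia and 0.63 in astrocytes, apart by 0.39 ± 0.17 (SE; edgeR adjusted p = 0.60), and 0.35 in oligodendrocytes, apart by 0.65 ± 0.21 (edgeR adjusted p = 0.18). The CAJA-DRA difference was 1.13 in microglia and 1.12 in astrocytes, apart by 0.01 ± 0.25, and apart by 0.34 ± 0.25 from that in oligodendrocytes. With few positive nuclei outside microglia these intervals are wide, and a missed call does not show that the types act alike.

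The genes whose log2 class difference was higher in microglia than in astrocytes were CPVL, a carboxypeptidase (1.79 against -0.22), PDE7B, a phosphodiesterase (0.43 against -0.67), and UNC5C, a netrin receptor (0.51 against -0.23). In microglia PDE7B turned to -0.049 thinned, to -0.11 at equal numbers per cluster and depth bin and to -0.55 in cluster 16, not called. CPVL itself was not a called rise between positive and negative microglia (log2 1.78, edgeR adjusted p = 1.4e-06), since 6.45% of positive nuclei held a UMI, and it was at 401 CPM in cluster 16 and 15.1 and 9.29 CPM in clusters 6 and 21. Against oligodendrocytes, RNASE1 (0.74 against -0.41), DOCK5 (0.73 against -0.36) and ALCAM, an adhesion molecule (0.64 against -0.32), had higher log2 class differences in microglia. Named genes with a lower log2 class difference in microglia included these: BTLA, a lymphocyte coreceptor, differed by 4.89 between positive and negative oligodendrocyte nuclei against 0.41 in microglia, the leukocyte transcription factor IRF8 by 3.201 against -0.10 and BLNK, a B cell adaptor, by 2.57 against 0.09. Leaving out injured 2 left 0 calls against astrocytes in edgeR, with 864 genes at an unadjusted p below 0.05, and leaving out injured 1 or injured 3 left 1 call each. Against oligodendrocytes, leaving out injured 1 gave 7 higher and 18 lower, injured 2 gave 1 and 13, and injured 3 gave 3 and 2. DESeq2 gave 2 higher and 13 lower there, so the even split did not hold.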

How the data were processed

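Nuclei of marmoset V1 were profiled by droplet single-nuclei RNA sequencing. The deposited tables hold raw UMI counts per gene and nucleus, made by the authors with Cell Ranger 3.1.0 on calJac3 with an Ensembl annotation changed for nuclei, together with the authors' clusters, clustered in Seurat, and cell types. Doublets were removed by the authors with Scrublet in the injured libraries and through limits on genes per nucleus in the control library, and no further nucleus was removed here. Injured libraries are numbered in accession order. Members and gene lists were chosen with earlier results of these data known.

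UMIs were summed per library and HLA-DPB1 class without normalization and tested by quasi-likelihood (glmQLFit and glmQLFTest of edgeR 4.0.16, R 4.3.3) after filterByExpr and with TMM factors, with the terms library and class (2 residual degrees of freedom) and Benjamini-Hochberg adjustment over all tested genes. The sums of 1 library come from the same animal, which is the source of the pairing. CPM values are UMIs per 1000000 UMIs of a sum, HLA-DPB1 left out of the sums of the main test. Genes were called at an adjusted p below 0.01 with a natural-log fold change beyond 0.25 in either direction and a UMI in 10% of positive or of negative nuclei, the last not required for interactions. Named genes were the class II list and CIITA, up to 5 members of each other list with the smallest p, the 12 largest called rises and falls with the same direction in every library, the study's cell type markers and the 5 largest interactions in each direction. Cluster and library-specific levels of other genes (CSF1R, CX3CR1, F13A1, MRC1, CD163, SKAP1, MS4A1 and FLT3 by cluster) were chosen after their values were seen. Symbols are as deposited, and 1216 of 9819 Ensembl IDs without a symbol matched one in the name table.

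The scripts were tested on simulated counts, without the limit on the share of nuclei. Between positive and negative microglia, 52% of 1.5-fold and 86% of 2-fold changes were called. In the interactions, 39% of 2-fold differences were called against astrocytes and 21% against oligodendrocytes. Many real differences of these sizes can thus be missed, and a missed call does not show equality. Alternatives were DESeq2 1.42.0, other scaling factors, no low-count filter, no block, other depth limits, thinning, equal numbers per depth bin (drawn from both classes rather than from negative nuclei alone), other class definitions (HLA-DPA1, since no gene is listed as HLA-DRA) and leaving out each library. The settings by cluster and by CAJA-DRA were chosen after seeing the data. Intervals and limits on shares cover counting error only. Sequences of these genes were not used here, and some genes that the naming rule picks are not reported here.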

Additional observations from a re-analysis of the deposited data

Results flagged for a closer look

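The class difference between HLA-DPB1-positive and negative nuclei was called different between cell types, by the interaction test in edgeR, for 15 named genes. These calls depended on the libraries. Leaving out injured 1, 2 and 3 in turn left 1, 0 and 1 calls against astrocytes and 25, 14 and 5 against oligodendrocytes. In microglia the PDE7B difference turned to -0.049 thinned and to -0.11 at equal numbers per cluster and depth bin. The values are the log2 class difference in microglia minus that in the other type. Against astrocytes it was 2.01 for CPVL, 1.09 for PDE7B, 0.74 for UNC5C, -0.85 for NCKAP5 and -1.43 for TMEM131L. Against oligodendrocytes it was 1.27 for TESK2, 1.15 for RNASE1, 1.09 for DOCK5, 1.06 for MOB3B, 0.96 for ALCAM, -2.46 for LRRK1, -2.48 for BLNK, -2.59 for PLCG2, -3.30 for IRF8 and -4.48 for BTLA. The oligodendrocyte sums rest on 122 positive nuclei, and in microglia BTLA was at 368 CPM in cluster 16 against 5.41 and 21.8 CPM in clusters 6 and 21. The cause was not tested.

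A signal lay outside the depth limit: 787 of 2296 injured Microglia-labelled nuclei below 2000 UMIs (34.3%) held an HLA-DPB1 UMI. Of 129 control Microglia-labelled nuclei of any depth, with a median of 793 UMIs, 0 did. The sets were not matched on depth, which limits detection. The control nuclei came from another facility and sequencer, which cannot be told apart from injury.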

How the results depend on the processing

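Against 241 calls, DESeq2 gave 106, each among the 241, and the 1000 to under 2000 UMI window gave 106, of which 27 were among the 241. At least 2 HLA-DPB1 UMIs against 0 gave 442, cluster 6 alone 35, cluster 21 alone 54 and equal numbers per cluster and depth bin 58. Without the replicate block edgeR gave 0 calls, with 533 genes at an unadjusted p below 0.05. Leaving out each library gave 147 to 447 calls, with 147 without injured 2 and 447 without injured 1, and 169 to 419 when cluster 16 was left out too. An adjusted p limit of 0.05 gave 349, no low-count filter 354, thinning 224, and depth bins 171. Against 137 rises and 104 falls, classes by CAJA-DRA gave 200 and 34 (234 in all) of 12117 genes tested. Among them were 72 of the 137 and 11 of the 104. Classes by HLA-DPA1 gave 216 and 45 (261) of 11821 genes tested, with 72 and 23 among them. Against astrocytes (5 calls) DESeq2 gave 13 (3 higher and 10 lower), thinning 14 (12 and 2), no cluster 16 gave 8 and leaving out a library 0 to 1. Against oligodendrocytes (12 calls) DESeq2 gave 15 (2 higher and 13 lower), thinning 6 (5 and 1) and no cluster 16 gave 15. Leaving out a library gave 5 to 25 there, with 25 without injured 1 and 5 without injured 3. The mean share of positive nuclei was 43.0% thinned, 54.7% with no depth limit and 70.2% at 4000 UMIs, and the CD74 detection difference was 12.4 points thinned.

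Of 64 named genes called over all nuclei, log2 fold changes turned direction as follows. In the 1000 to under 2000 UMI window GPR34 stood at 0.83, FTL at -0.019, CD36 at -0.062, LGALS3 at -0.096, C1QC at -0.32, ITGA4 at -0.044, RPLP0 at -0.033, PDE7B at -0.38 and 1 gene with no symbol at -0.069. With classes by HLA-DPA1, CD36 stood at -0.013, S100A9 at 0.16 and PDE7B at -0.055, and by CAJA-DRA at -0.11, 0.37 and -0.074. In cluster 6 CD36 stood at -0.029, FSCN1 at 0.20, FLT1 at 0.12 and CDH10 at 0.19. In cluster 16 LGALS3 stood at -0.024, ANXA2 at -0.0043 and PDE7B at -0.55. In cluster 21 ISG15 stood at -0.12, COLEC12 at 0.024 and CD247 at 0.36, and without cluster 16 CD247 stood at 0.045. With equal numbers per cluster and depth bin CD36 stood at -0.064, TGFB2 at 0.060, KCNIP1 at 0.0091 and PDE7B at -0.11, and thinned PDE7B at -0.049. The causes were not tested. The other settings turned no named gene. Calls in the same direction numbered 15 of 63 tested in cluster 6, 13 of 46 in cluster 16 and 15 of 62 in cluster 21. At equal numbers per cluster and depth bin there were 28 of 64. Depth limits the class itself, since 39.9 to 51.5% of members rested on 1 HLA-DPB1 UMI.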
